A study of Homo sapiens with 12 samples.

Results

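The 10 genes described here encode the chains of the interferon (IFN) receptors and the feedback regulators that act below them: IFNAR1 and IFNAR2, IFNGR1 and IFNGR2, IFNLR1 and IL10RB, SOCS1, SOCS2 and SOCS3, and PIAS1. They were taken by symbol from the 39368 symbols counted in each of 2 cell lines, and all 10 were found in both. CAL27 and HSC3 are established human HPV-negative head and neck squamous cell carcinoma (HNSCC) lines, and both carried a doxycycline-inducible (tet) MUC1 short hairpin RNA (CAL27/tet-MUC1shRNA cells and HSC3/tet-MUC1shRNA cells). Each line was treated for 7 days with 0.10% DMSO as the vehicle control or with 500 ng/mL DOX, which induces the hairpin and thereby silences MUC1-C. RNA-seq was performed on 3 libraries in each of the 4 groups. Vehicle and DOX cells of a line share the transduced vector and differ in both the agent and the silencing. The paper cultured CAL27 cells in DMEM and HSC3 cells in minimum essential medium, so cell line and medium cannot be told apart. A scrambled hairpin was not analysed here, so MUC1-C silencing and exposure to DOX itself cannot be told apart. The libraries came from triplicate cultures of 1 transduced line each, so the p-values measure the spread between cultures of that line.

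Each type of IFN is read by a receptor of paired chains. IFNAR1 and IFNAR2 bind the type I IFNs, IFNGR1 and IFNGR2 bind IFN-γ, and IFNLR1 pairs with IL10RB, a chain shared with the IL-10 receptor family, to bind the type III IFNs. The chains hold JAK kinases that phosphorylate STAT proteins, and STAT dimers then switch on IFN-stimulated genes. SOCS1 and SOCS3 are themselves STAT targets and block the JAKs in a feedback loop, SOCS2 is best known for restraining growth hormone signaling through STAT5, and PIAS1 is a SUMO ligase that limits STAT proteins on DNA.

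The promoters of IFNGR1, which fell by more than 2-fold in both lines, and of SOCS1, which fell by more than 2-fold in CAL27 cells, are printed because IFN-activated factors act on DNA through 2 short motifs. These are the GAS letters TTCNNNGAA, which STAT dimers recognise, and the ISRE core TTTCNNTTT, which IRF proteins recognise, each searched on both strands. The sequences are from RefSeq (GRCh38.p14), run 5′ to 3′ on the gene's strand and end where the gene begins. Capitals mark the match to the ISRE core, which lies on the opposite strand and starts 112 bases before the start site.

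IFNGR1 promoter, chr6:137219450-137219635, minus strand: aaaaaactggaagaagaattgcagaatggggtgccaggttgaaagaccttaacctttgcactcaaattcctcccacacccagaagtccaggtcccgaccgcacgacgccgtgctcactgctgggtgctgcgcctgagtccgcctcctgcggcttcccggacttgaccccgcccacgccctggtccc
SOCS1 promoter, chr16:11256205-11256454, minus strand: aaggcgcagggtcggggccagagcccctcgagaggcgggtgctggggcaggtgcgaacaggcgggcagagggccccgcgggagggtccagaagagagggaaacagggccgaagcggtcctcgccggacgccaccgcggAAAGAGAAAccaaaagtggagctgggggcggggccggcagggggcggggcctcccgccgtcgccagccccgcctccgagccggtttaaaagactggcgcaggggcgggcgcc

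The SOCS1 window of 250 bases held 1 ISRE core match and no GAS match, and neither motif was in the IFNGR1 windows. Of all 35116 promoter windows of that length, 9.2% held an ISRE core match and 6.57% a GAS match. A promoter was matched for 8 of the 10 genes, and IFNAR2 and SOCS2 were not among them. The only other match was 1 GAS sequence in the IFNLR1 window, 238 bases before its RefSeq start. That window, chr1:24187290-24187539, lies inside the gene as GENCODE places it. The bases just before the GENCODE start of IFNLR1 at 24187959 were not searched. The SOCS3 windows, chr17:78360926-78361175 and chr17:78359668-78359917, do not hold the bases just before its GENCODE start at 78360077. Those bases were not searched. These matches are descriptions of letters in a window and were not tested as binding sites.

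On GRCh38 (GENCODE v44) 4 of the receptor genes lie close together on chromosome 21, all on the plus strand: IFNAR2 at chr21:33205282-33265675, IL10RB at chr21:33266367-33311420, IFNAR1 at chr21:33324387-33359864 and IFNGR2 at chr21:33403413-33479348. IFNGR1 is at chr6:137197483-137219449 and IFNLR1 at chr1:24154168-24187959, both on the minus strand. SOCS1 (chr16:11254417-11256204) and SOCS3 (chr17:78356778-78360077) are short genes on the minus strand, while SOCS2 (chr12:93569814-93583487) and PIAS1 (chr15:68054309-68198603) are on the plus strand. The annotated readthrough gene IFNAR2-IL10RB runs along the same strand and covers 86.0% of the coding bases of IFNAR2 and 80.8% of those of IL10RB. A counter that drops reads falling in more than 1 gene would lose most of the coding sequence of both, and how such reads were treated is not given in the sources used here. The counts of IFNAR2 and IL10RB are therefore uncertain as levels.

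The libraries held from 89730914 to 169065103 counts. The estimated counts per molecule were 2.66 to 3.55 in CAL27 cells, 4.4 to 7.66 in HSC3 vehicle cells and 9.14 to 17.5 in HSC3 DOX cells. The estimate rests on the share of zeros, which spread between replicates also raises, so repeated counts and spread cannot be told apart. The highest value, 17.5, was that of HSC3 DOX replicate 1. Low counts in the HSC3 DOX libraries may thus rest on few molecules. HSC3 DOX replicate 1 stood apart, with a chi-square per degree of freedom of 132 and 85.4 against the other 2 libraries of its group and 22 between those 2. MUC1 itself, on the scale of TMM-normalized CPM (counts scaled to a library total corrected by edgeR's TMM factors) used throughout, fell from 55.3 ± 2.79 to 2.98 ± 0.249 CPM in CAL27 cells and from 1.76 ± 0.186 to 0.236 ± 0.0928 CPM in HSC3 cells (SD, n = 3 libraries). The adjusted p-values were 1.6e-19 and 0.0002 in edgeR's quasi-likelihood test, adjusted over all genes tested by Benjamini-Hochberg, the test used for every fold change here. All 8 squamous markers were at 1 CPM or more in every library, and their summed level was 5885 to 6593 CPM with vehicle against 2688 to 3183 CPM with DOX over the 2 lines. The part of this shift in the results was not tested. The 5 leukocyte markers summed to 5.26 CPM or less in every library, the 3 endothelial markers to 15.3 or less and the 4 fibroblast markers to 13.3 or less, and CD3E and LYZ were at 0 in all HSC3 libraries.

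Levels of different genes were compared per kb of exon. Their order depends on the lengths used, from 1.788 kb for SOCS1 to 15.68 kb for IFNAR1. In CPM alone, IFNAR1 (130) and PIAS1 (96.9) lay above IFNGR1 (81.6) in CAL27 vehicle cells. Per kb, IFNGR1 was the highest of the 10 genes with vehicle in both lines. It stood at 23.0 ± 0.727 CPM per kb in CAL27 and 21.3 ± 1.25 in HSC3 cells (SD, n = 3). IFNGR2, PIAS1, IFNAR1 and SOCS3 followed at 10.5 to 5.74 CPM per kb in CAL27 vehicle cells, and their ranges did not overlap between neighbours. In HSC3 vehicle cells the order below IFNGR1 was IFNGR2 (12.7), IFNAR1 (9.33), PIAS1 (6.88), SOCS2 (6.29) and SOCS3 (5.57 CPM per kb). With DOX, IFNGR2, PIAS1 and IFNAR1 overlapped in CAL27 cells at 8.58, 8.42 and 8.33 CPM per kb. In HSC3 DOX cells SOCS3 was the highest, at 12.9 ± 0.325 CPM per kb, with no overlap with IFNGR2 at 10.2 ± 0.730. IFNAR2 and IL10RB were the lowest in every group, at 0.0256 to 0.0831 CPM per kb.

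**Figure D1:**
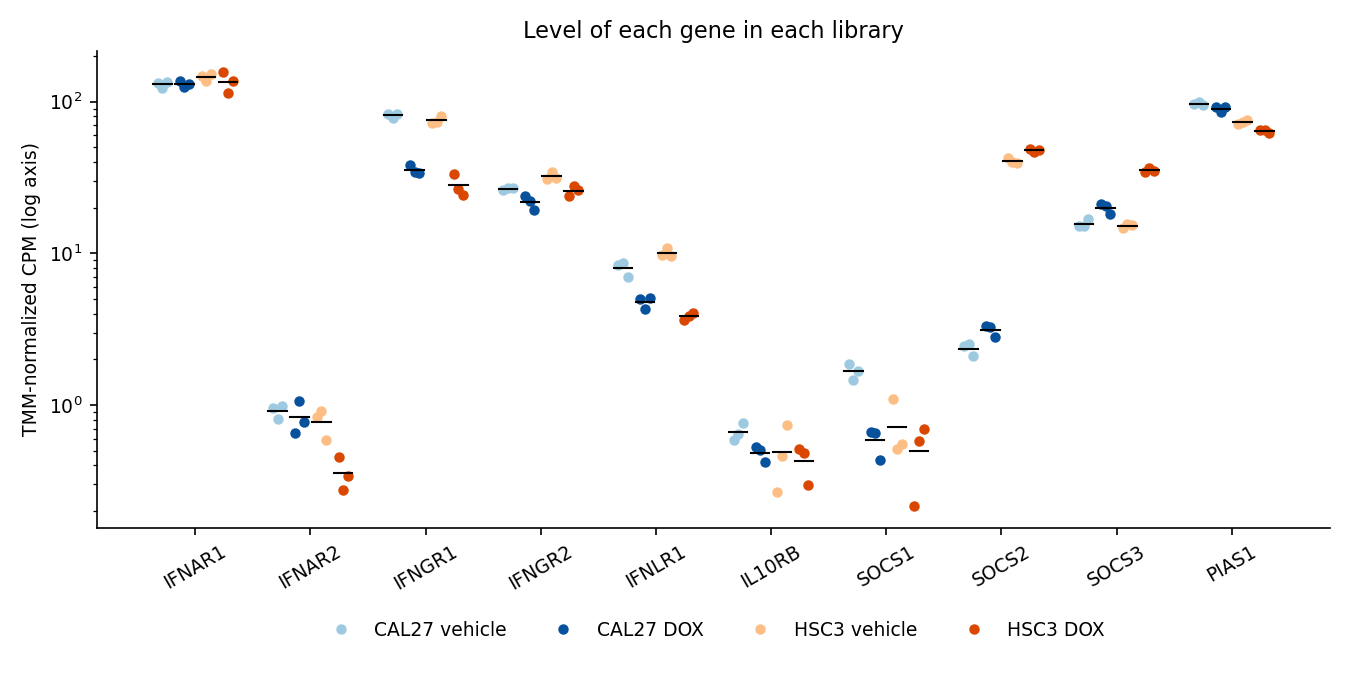
Level of each gene in each of the 12 libraries, as TMM-normalized CPM on a log axis. Points are libraries and bars are means of 3; IFNGR1 and IFNLR1 are lower with DOX in both lines, SOCS3 is higher with DOX in HSC3 cells, and SOCS2 separates the lines at 2.36 against 40.7 CPM with vehicle.

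The first comparison asked how these genes respond to MUC1-C silencing in CAL27/tet-MUC1shRNA cells. IFNGR1, the ligand-binding chain for IFN-γ, and SOCS1 fell by more than 2-fold, IFNLR1 and IFNGR2 fell less, and SOCS2 and SOCS3 rose. Of the 10 genes, 2 were higher and 5 lower at an adjusted p under 0.05, where 22.6% of the 19239 genes tested were higher and 21.8% lower. With a fold change above 2 as well, 0 were higher and 2 lower, against 1.31% and 5.11% of all genes, and the largest rise was the 0.41 of SOCS2. All 10 passed the filter on low counts, and their median log2 fold change was -0.22 beside -0.01 over all genes.

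In HSC3/tet-MUC1shRNA cells, IFNGR1 and IFNLR1 fell by more than 2-fold and SOCS3 rose by more than 2-fold. Of the 10 genes, 2 were higher and 4 lower, where 13.0% of 18021 genes were higher and 15.4% lower. Without HSC3 DOX replicate 1, 2 of the 10 were higher and 6 lower, where 17.5% of all genes were higher and 19.3% lower. Past a 2-fold change, 1 was higher and 2 lower, against 1.58% and 4.40% of all genes. The median over the 10 was -0.25 beside -0.01 over all genes. IFNGR1, IFNGR2, IFNLR1 and PIAS1 were lower and SOCS2 and SOCS3 higher in both lines, but the calls for IFNGR2, SOCS2 and PIAS1 in HSC3 cells were lost on leaving out single libraries.

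**Figure D2:**
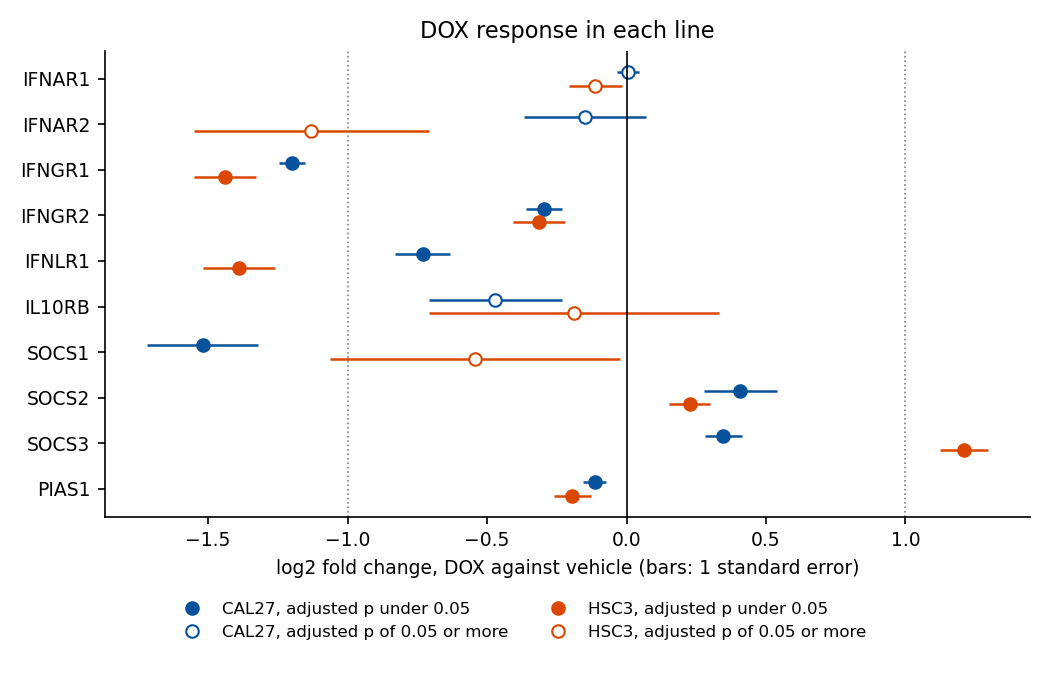
Response to DOX of each gene, as the log2 fold change, in CAL27 (blue) and HSC3 (orange) cells, with 1 standard error from edgeR, filled where the adjusted p was under 0.05. IFNGR1 is past 2-fold (dotted lines) in both lines at -1.20 and -1.44, and SOCS3 stands at 0.35 in CAL27 and 1.21 in HSC3 cells.

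The type I receptor chains did not pass the test in either line. IFNAR1, the chain that brings TYK2 to the receptor, was at 132, 124 and 134 CPM with vehicle against 136, 125 and 131 with DOX in CAL27 cells, and at 148, 138 and 153 against 156, 115 and 136 CPM in HSC3 cells. The vehicle and DOX libraries overlapped in both lines. The log2 fold change was 0.01 (interval of 2 standard errors -0.08 to 0.09, adjusted p = 0.94 by edgeR) in CAL27 and -0.11 (-0.30 to 0.08, adjusted p = 0.45) in HSC3 cells. These intervals hold changes of up to 0.09 and 0.30 on the log2 scale. Without HSC3 DOX replicate 1 the adjusted p of IFNAR1 in HSC3 cells was 0.01, with a log2 fold change of -0.22.

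IFNAR2, which binds IFN most tightly and docks STAT2, was counted 131, 88 and 119 times with vehicle against 68, 109 and 100 times with DOX in CAL27 cells. HSC3 cells had 96, 75 and 70 counts with vehicle against 67, 37 and 41 with DOX, in libraries of larger totals. On the CPM scale the HSC3 groups did not overlap, at 0.586 to 0.912 with vehicle against 0.275 to 0.452 with DOX, while the CAL27 groups did. The log2 fold change in HSC3 cells was -1.13 ± 0.42 (SE) with an adjusted p of 0.068 by edgeR, which became 0.034 without DOX replicate 1 and 0.013 in 1 fit over all 12 libraries. In CAL27 cells it was -0.15 ± 0.22 (adjusted p = 0.63). At the counts per molecule estimated above, 37 counts may stand for few molecules, and the readthrough gene makes the level itself uncertain.

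IFNGR1 was the receptor chain with the clearest response. Its level with vehicle was 83.1, 78.6 and 83.0 CPM in CAL27 cells and fell with DOX to 38.4, 34.4 and 33.9 CPM. HSC3 cells had 72.9, 73.6 and 80.9 CPM with vehicle against 33.3, 26.6 and 24.4 CPM with DOX. Every DOX library lay under every vehicle library in both lines. DOX lowered IFNGR1 by a log2 fold change of -1.20 ± 0.047 (SE, 2.3-fold lower, adjusted p = 8.8e-14 by edgeR) in CAL27 and -1.44 ± 0.11 (2.7-fold lower, adjusted p = 4.5e-06) in HSC3 cells. Both calls held under every alternative run, with log2 fold changes from -1.26 to -1.17 and from -1.57 to -1.35. The difference between the lines was -0.23 (interval of 2 standard errors -0.50 to 0.03, adjusted p = 0.26), and without HSC3 DOX replicate 1 it was -0.35 with an adjusted p of 0.0047.

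IFNGR2, the signaling chain that carries JAK2, moved less. It was 26.2, 26.8 and 27.0 CPM with vehicle against 23.8, 22.1 and 19.4 CPM with DOX in CAL27 cells, and 30.8, 34.6 and 31.3 against 24.0, 27.7 and 26.2 CPM in HSC3 cells. The groups did not overlap in either line. By edgeR the log2 fold changes were -0.30 ± 0.063 (adjusted p = 0.00059) and -0.31 ± 0.092 (adjusted p = 0.025). In HSC3 cells the call was lost without any 1 of the 3 vehicle libraries or DOX replicate 3, with adjusted p-values of 0.059 to 0.13. Of the exons of IFNGR2, 14.97% lie opposite to TMEM50B, whose log2 fold changes were 0.05 and 0.03 (adjusted p = 0.71 and 0.89 by edgeR).

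The unequal fall changed the ratio of the 2 IFN-γ receptor chains within each library, a measure that does not depend on normalization. IFNGR2 per IFNGR1, in counts per kb, was 0.441, 0.476 and 0.455 with vehicle against 0.867, 0.899 and 0.801 with DOX in CAL27 cells. The HSC3 values were 0.590, 0.657 and 0.541 with vehicle against 1.01, 1.46 and 1.5 with DOX, and the lowest of these was DOX replicate 1. IFNGR1 was thus the more abundant transcript per kb in all 9 libraries of the other groups, and IFNGR2 equalled or exceeded it in the HSC3 DOX libraries. The size of the ratio rests on the exon lengths used, 3.549 kb for IFNGR1 and 2.539 kb for IFNGR2. In CPM alone IFNGR1 stayed above IFNGR2 in HSC3 DOX replicate 1 (33.3 against 24.0). It lay below IFNGR2 in replicates 2 and 3 (26.6 against 27.7 and 24.4 against 26.2). The mean log2 ratio rose by 0.90 in CAL27 and by 1.13 in HSC3 cells, with no overlap between groups. The exact two-sided permutation p was 0.1 in both, the smallest that 3 against 3 libraries allow, and 0.23 when adjusted over the 9 ratio tests made. The log2 ratio of IFNAR2 to IFNAR1 changed by -1.02 with DOX in HSC3 cells, also without overlap (permutation p = 0.1, adjusted 0.23). In CAL27 cells it changed by -0.18 and the groups overlapped. This ratio carries the limits of the low IFNAR2 counts given above.

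IFNLR1, which restricts type III IFN responses largely to epithelial cells, fell in both lines. It was 8.42, 8.58 and 6.94 CPM with vehicle against 5.04, 4.29 and 5.12 CPM with DOX in CAL27 cells. The HSC3 values were 9.80, 10.8 and 9.62 CPM with vehicle against 3.65, 3.86 and 4.07 CPM with DOX, so that the DOX libraries of HSC3 lay below those of CAL27. For IFNLR1 the log2 fold change was -0.73 ± 0.099 (1.66-fold lower, adjusted p = 4.5e-06 by edgeR) in CAL27 and -1.39 ± 0.13 (2.62-fold lower, adjusted p = 1.7e-05) in HSC3 cells. The fall was larger in HSC3 cells by 0.65 on the log2 scale (SE 0.16, adjusted p = 0.01 for the line by DOX interaction), and the adjusted p of this difference stayed between 0.0015 and 0.04 over the 18 alternatives run.

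IL10RB, the shared second chain, had at most 93 counts in a library. It was 0.587, 0.646 and 0.767 CPM with vehicle against 0.526, 0.504 and 0.419 with DOX in CAL27 cells, groups that did not overlap. Its log2 fold change of -0.47 ± 0.24 did not pass the test (adjusted p = 0.13 by edgeR). In HSC3 cells it ranged from 0.269 to 0.737 CPM with vehicle against from 0.298 to 0.512 with DOX, and the log2 fold change was -0.19 with an interval of 2 standard errors of -1.23 to 0.85. A change of more than 2-fold downward was thus within the interval in HSC3 cells. The readthrough gene makes the level of IL10RB uncertain, as for IFNAR2. The ratio of IFNLR1 to IL10RB overlapped between vehicle and DOX in both lines.

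SOCS1, which binds JAK1, JAK2 and TYK2 and is induced by all IFN types, had low counts. In CAL27 cells it had 257, 158 and 204 counts with vehicle against 70, 68 and 56 with DOX, which is 1.86, 1.46 and 1.68 against 0.669, 0.659 and 0.435 CPM. All 3 DOX libraries lay under all 3 vehicle libraries. For SOCS1 the log2 fold change was -1.52 ± 0.20 (2.87-fold lower, adjusted p = 3.1e-06 by edgeR), and the adjusted p stayed at or under 0.012 under every alternative run. In HSC3 cells SOCS1 was 1.09, 0.511 and 0.553 CPM with vehicle against 0.216, 0.579 and 0.694 CPM with DOX, and the groups overlapped. Its log2 fold change of -0.54 ± 0.52 did not pass (adjusted p = 0.51), and the lowest DOX library was replicate 1, without which it was -0.18 (adjusted p = 0.81). The difference between the lines was 0.96 (interval of 2 standard errors -0.18 to 2.11, adjusted p = 0.28), so a fall in HSC3 cells like that in CAL27 cells was within the interval.

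SOCS3, which blocks JAK signaling through gp130 and other cytokine receptors, rose with DOX in both lines. It was 15.1, 15.2 and 16.8 CPM with vehicle against 21.2, 20.6 and 18.2 CPM with DOX in CAL27 cells. HSC3 cells had 14.6, 15.6 and 15.5 CPM with vehicle against 34.5, 36.3 and 35.1 CPM with DOX. The vehicle levels overlapped between the lines, the DOX levels did not, and within each line no DOX library overlapped a vehicle library. SOCS3 had a log2 fold change of 0.35 ± 0.067 (1.27-fold higher, adjusted p = 0.00025 by edgeR) in CAL27 and 1.21 ± 0.085 (2.31-fold higher, adjusted p = 2.4e-06) in HSC3 cells. The rise was larger in HSC3 cells by 0.86 (SE 0.11, adjusted p = 4.2e-05), and this difference was 0.82 to 0.92 under the alternatives, each past the threshold.

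SOCS2 rose with DOX by a small amount. It was 2.46, 2.51 and 2.10 CPM with vehicle against 3.34, 3.27 and 2.81 CPM with DOX in CAL27 cells (log2 fold change 0.41 ± 0.13, adjusted p = 0.012 by edgeR), and without vehicle replicate 3 the adjusted p was 0.087. HSC3 cells had 42.7, 39.9 and 39.6 CPM against 49.1, 46.4 and 47.9 CPM (0.23 ± 0.074, adjusted p = 0.04), a call lost in 8 of 13 alternatives. The groups did not overlap in either line.

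Summed over SOCS1, SOCS2 and SOCS3 per kb, the makeup of the 3 genes differed between the lines. SOCS3 made up 81.6% ± 1.80 (SD, n = 3) in CAL27 vehicle cells and 90% ± 0.651 with DOX, while SOCS1 went from 13.3% ± 1.54 to 4.01% ± 0.604. In HSC3 vehicle cells SOCS2 made up 51.3% ± 1.18 and SOCS3 45.5% ± 2.58. With DOX SOCS3 made up 62.8% ± 0.998 and SOCS2 35.9% ± 1.39 in HSC3 cells, so that the leading gene per kb changed. In CPM SOCS2 stayed above SOCS3 in HSC3 DOX cells, at 47.8 against 35.3. The change of order thus rests on the exon lengths used, 6.477 kb for SOCS2 and 2.734 kb for SOCS3. The shares of all 3 genes were without overlap between vehicle and DOX libraries in both lines, and the share of SOCS2 in CAL27 cells moved least, from 5.20% to 5.96%. Shares of a sum move together, so these are descriptions and no test was made.

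**Figure D3:**
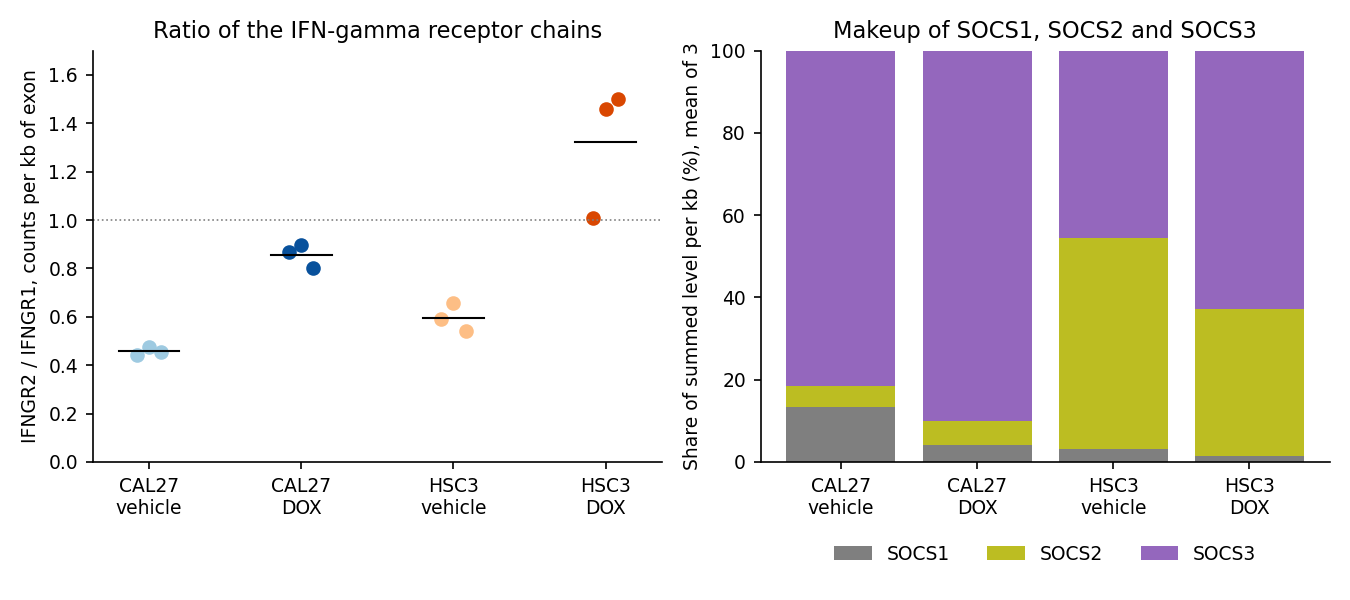
Left, IFNGR2 per IFNGR1 in counts per kb of exon in each library (points) with the mean of 3 (bar) and a dotted line at 1; vehicle libraries lie at 0.441 to 0.657 and DOX libraries at 0.801 to 1.5. Right, mean share (%) of SOCS1, SOCS2 and SOCS3 in their summed level per kb; SOCS3 makes up 81.6% in CAL27 vehicle and SOCS2 51.3% in HSC3 vehicle cells.

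PIAS1 was abundant and nearly level. It was 95.9, 99.8 and 95.0 CPM with vehicle against 91.8, 85.5 and 91.8 CPM with DOX in CAL27 cells, and 70.8, 73.3 and 75.7 against 65.0, 65.0 and 62.6 CPM in HSC3 cells. The DOX libraries lay under the vehicle libraries in both lines. The log2 fold changes were -0.11 ± 0.041 (adjusted p = 0.029 by edgeR) and -0.19 ± 0.065 (adjusted p = 0.047). These calls were lost in 3 of 12 alternatives in CAL27 and 9 of 13 in HSC3 cells, so they rest on the choice of libraries and tool. PIAS1 exons lie opposite to CALML4 over 30.6% of their length, and CALML4 had at most 32 counts in a library.

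The line by DOX fit over all 12 libraries asked which responses differed between CAL27 and HSC3 cells. Of the 10 genes, SOCS3 was higher and IFNLR1 lower in the HSC3 response, where 8.25% of 20694 genes were higher and 12.3% lower. The other 8 genes did not pass this test, and without HSC3 DOX replicate 1 IFNGR1 (adjusted p = 0.0047 by edgeR) and SOCS1 (0.033) also passed. MUC1 itself fell less in HSC3 than in CAL27 cells, by 1.36 on the log2 scale (adjusted p = 0.001, and 0.091 after dividing counts by those per molecule).

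The last comparison set the lines side by side with vehicle, and it shares its vehicle libraries with the DOX comparisons above. Cell line, medium and count table cannot be told apart in it. SOCS2 separated the lines most. It was 42.7, 39.9 and 39.6 CPM in HSC3 and 2.46, 2.51 and 2.10 CPM in CAL27 cells, 17.3-fold higher in HSC3 cells (log2 difference 4.11 ± 0.082, adjusted p = 2.3e-13 by edgeR). The antisense gene SOCS2-AS1, which lies opposite to 4.28% of the SOCS2 exons, was also higher, with 541, 373 and 552 counts in HSC3 and 42, 31 and 21 in CAL27 cells (4.17, adjusted p = 9.1e-10), and its reads cannot be told from those of SOCS2 there unless the counting used strand. SOCS1 was 2.3-fold lower in HSC3 cells (-1.20 ± 0.29, adjusted p = 0.0021), with all HSC3 vehicle libraries under those of CAL27. PIAS1 was lower as well (-0.40 ± 0.043, adjusted p = 2e-06).

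Of the 10 genes, 4 were higher and 2 lower in HSC3 cells, where 34.7% of 19410 genes were higher and 37.1% lower, and 1 was higher and 1 lower by more than 2-fold, against 14.2% and 20.5%. The median difference was -0.07 over the 10 and -0.10 over all genes. Scaling by library totals instead of TMM moved the median of all genes by -0.27, to a value of -0.37, and under it the counts were 1 higher and 4 lower. The shares of all genes under library totals are not given here, so these counts are not read as a trait of the 10 genes. IFNAR1 (0.17 ± 0.047, adjusted p = 0.005 by edgeR) turned to -0.10 under library totals, IFNGR2 (0.27 ± 0.059, adjusted p = 0.001) came to 0.00 and IFNLR1 (0.34 ± 0.10, adjusted p = 0.0087) to 0.06, so the direction of IFNAR1 and the calls of IFNGR2 and IFNLR1 (adjusted p = 0.99 and 0.57 under library totals) depend on the scaling. IFNGR1 (-0.10, adjusted p = 0.076) and SOCS3 (-0.04, adjusted p = 0.62) did not pass, and both were lower under library totals (adjusted p = 1.1e-05 and 0.0018). IFNGR1 also passed in 4 other alternatives, with adjusted p-values of 0.0049 to 0.043. IFNAR2 and IL10RB did not pass and overlapped between the lines, though IL10RB passed without HSC3 vehicle replicate 3 (-0.88, adjusted p = 0.037). The IFNAR1 call was also lost in 1 fit over all 12 libraries (0.09) and the IFNLR1 call without CAL27 vehicle replicate 3 (0.06), while those for SOCS1, SOCS2 and PIAS1 held under every alternative run.

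**Figure D4:**
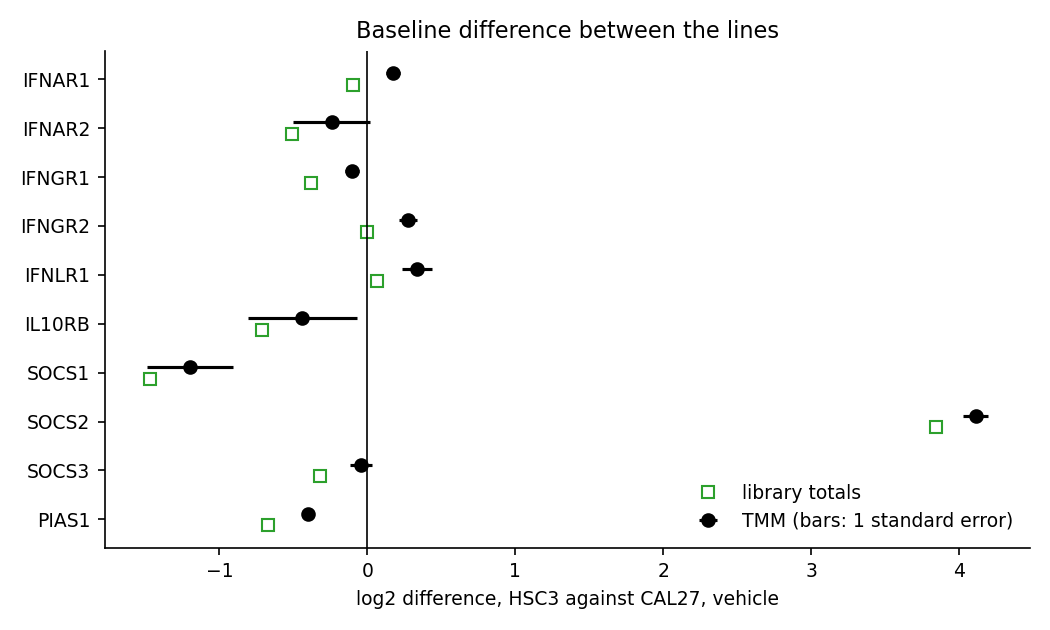
The log2 difference between HSC3 and CAL27 cells with vehicle for each gene under TMM (black, with 1 standard error from edgeR) and under library totals (green squares). SOCS2 stands at 4.11 and 3.84; IFNAR1 lies on either side of 0, at 0.17 and -0.10.

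The surrounding pathway was read from lists of related genes. Their counts stand beside 22.6% higher and 21.8% lower among all genes with DOX in CAL27 cells, beside 13.0% and 15.4% for HSC3, and beside 34.7% and 37.1% between the lines with vehicle, and the median log2 values over all genes were -0.01, -0.01 and -0.10. Of 22 IFN genes, 12 were at 0 in every library, IFNG among them, and 15 never had more than 8 counts. Of the others, IFNE, an epithelial type I IFN, had the most, with 550, 363 and 594 counts with vehicle against 476, 298 and 229 with DOX in HSC3 cells and 71 to 152 in CAL27 cells. Of the 3 IFN genes tested in HSC3 cells it was the 1 that passed (log2 fold change -0.96, adjusted p = 0.0056 by edgeR), and it is named because its values were seen. None of the 3 tested in CAL27 cells passed by edgeR, where 1 was lower at an unadjusted p under 0.05. DESeq2, run without the filter on low counts, called 1 IFN gene higher and 0 lower there. IFNG encodes the ligand of IFNGR1, the receptor chain highest per kb with vehicle. Its count of 0 allows up to 3 counts in a library if each count is a separate molecule. By the estimates above several counts may stand for 1 molecule, so the limit may be looser, most of all in HSC3 DOX libraries.

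Of the 9 JAK-STAT transducers, 1 rose and 5 fell with DOX in CAL27 cells and 1 rose and 3 fell in HSC3 cells, with median log2 fold changes of -0.15 and -0.07. STAT2, which carries type I IFN signals, had log2 fold changes of -1.14 in CAL27 and -0.29 in HSC3 cells, both past the threshold, and the difference of 0.86 passed the test (adjusted p = 6.1e-06 by edgeR). JAK2, the kinase of IFNGR2, fell in HSC3 cells (-0.51, adjusted p = 0.0054), and STAT5B rose there (0.51, adjusted p = 0.00041), while its value of 0.12 in CAL27 cells passed (adjusted p = 0.036) but not without any 1 of 5 libraries (0.09 to 0.17). With vehicle, 3 of the 9 were higher and 5 lower in HSC3 cells, with JAK2 at 1.7.

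Among 9 other SOCS family genes and subunits of the SOCS box ligase, 3 rose and 1 fell in CAL27 cells and 1 rose and 2 fell in HSC3 cells. SOCS6 rose (0.27, adjusted p = 0.0036 by edgeR) and SOCS5 fell (-0.24, adjusted p = 0.00026) in CAL27 cells, while their values in HSC3 cells (0.33 and -0.32) passed but lost the call without any 1 of 3 libraries for SOCS6 (adjusted p = 0.077 to 0.13) and of 4 for SOCS5 (0.073 to 0.15). SOCS4 fell from 273 ± 9.19 to 148 ± 19.7 CPM in HSC3 cells (-0.89, adjusted p = 2.2e-05 by edgeR), and its response differed from that in CAL27 cells (-0.79, adjusted p = 0.00011). With vehicle 8 of these 9 were higher in HSC3 cells, beside a median of 0.82 over the list and -0.10 over all genes. Of 7 PIAS and SUMO conjugation genes, 2 rose and 0 fell in CAL27 cells by edgeR, with 1 lower at an unadjusted p under 0.05 and 0 by DESeq2. In HSC3 cells 0 rose, with 1 higher at an unadjusted p under 0.05 and 0 by DESeq2, and 3 fell, among them PIAS2 (-0.70, adjusted p = 0.00036). With vehicle 4 of these 7 were higher and 2 lower in HSC3 cells.

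Of 9 other negative regulators of IFN signaling, 3 rose and 5 fell in CAL27 cells and 1 rose and 1 fell in HSC3 cells. USP18, which displaces JAK1 from IFNAR2, fell from 15.8 ± 0.995 to 6.50 ± 0.934 CPM in CAL27 cells (-1.29, adjusted p = 4.7e-10 by edgeR) and was 4.85-fold lower in HSC3 than in CAL27 cells with vehicle. The phosphatase gene PTPN1 rose in both lines (0.37 and 0.41), and SH2B3, an adaptor that restrains JAK2, fell more in HSC3 (-0.93, adjusted p = 1.8e-05) than in CAL27 cells (-0.24, adjusted p = 0.0054; difference adjusted p = 0.0007), where its libraries overlapped and the call was lost in 1 fit over all 12 libraries (0.055). With vehicle 4 of the 9 were higher and 4 lower in HSC3 cells.

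Of the 6 other class II cytokine receptor genes, 5 were tested in CAL27 cells, where 1 rose and 4 fell, and 4 in HSC3 cells, where 1 rose and 1 fell. IL20RB, a chain for IL-19, IL-20 and IL-24, fell from 22.0 ± 0.804 to 7.30 ± 0.917 CPM in CAL27 (-1.60, adjusted p = 5e-12 by edgeR) and from 29.8 ± 5.60 to 9.16 ± 1.40 CPM in HSC3 cells (-1.71, adjusted p = 1.4e-05). F3, the tissue factor gene of the same family, rose in CAL27 cells by 1.34 (adjusted p = 1.2e-12). In HSC3 cells F3 was 0.21 higher (adjusted p = 0.034), a call lost without any 1 of 4 libraries (0.076 to 0.14). With vehicle 2 of 5 were higher and 2 lower in HSC3 cells.

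Of 11 gp130 cytokine and receptor genes, which signal through STAT3 and can induce SOCS3, 9 were tested in each line, with 6 higher and 3 lower in CAL27 and 3 higher and 2 lower in HSC3 cells. LIF rose from 8.95 ± 0.609 to 17.6 ± 1.29 CPM in CAL27 (0.97, adjusted p = 8.4e-10 by edgeR) and from 5.74 ± 0.224 to 14.3 ± 1.56 CPM in HSC3 cells (1.31, adjusted p = 2.4e-05). LIFR passed in opposite directions, at -0.14 in CAL27 and 0.34 in HSC3 cells (difference 0.49, adjusted p = 0.001), though the HSC3 call was lost without vehicle replicate 2 (0.065) and the CAL27 call in 1 fit over all 12 libraries (0.13). With vehicle 5 of 9 were higher and 2 lower in HSC3 cells, IL6R by 3.06-fold. Of 4 class I receptors that signal through STAT5, the axis of SOCS2, 1 rose and 2 fell in CAL27 cells and 0 of the 3 tested in HSC3 cells passed by edgeR or DESeq2, with 0 at an unadjusted p under 0.05. With vehicle 2 of those 4 were higher and 2 lower in HSC3 cells.

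Over the 12 libraries the genes with the pattern most like IFNGR1, among 9234 compared by Pearson's r of log2 CPM, were ATF2 (0.992), TP63 (0.991) and IL1RAP (0.989). TP63, which encodes the squamous lineage factor p63 and is 1 of the 8 squamous markers above, went from 851 to 424 CPM in CAL27 and from 805 to 349 CPM in HSC3 cells, and IL1RAP from 181 to 80.8 and from 186 to 73.8 CPM. For SOCS3 they included UBE2H (0.980) and XPNPEP3 (0.976). XPNPEP3 went from 49.2 to 63.1 CPM in CAL27 and from 46.2 to 93.3 CPM in HSC3 cells. These are descriptions over libraries that fall into 4 groups and share a line, a treatment and a depth.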

How the data were processed

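RNA-seq was performed on 12 libraries of CAL27/tet-MUC1shRNA cells and HSC3/tet-MUC1shRNA cells. The authors isolated RNA with TRIzol, prepared TruSeq Stranded mRNA libraries and aligned reads to GRCh38. The submitters' processing notes name FastQC 0.11.9, STAR 2.7.9a, Subread 2.0.1 and featureCounts; the annotation, strand setting and handling of shared or duplicated reads are not given in the sources used here. The values deposited for each line are raw counts per gene symbol, not normalized.

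In the CAL27 table the DOX columns carry numbers that differ from the sample labels, so they entered as that group without replicate numbers. Genes passed filterByExpr (minimum count 10, total 15). Differences were tested with edgeR 4.0.16 (TMM, robust quasi-likelihood F-test, two-sided, R 4.3.3) within the 6 libraries of a comparison or, for the line by DOX difference, all 12, and adjusted over all genes tested. The standard error is the log2 fold change divided by the root of F. CPM were TMM-normalized over all 12 libraries, and lengths are GENCODE v44 exon unions, which may differ from the features counted. Counts per molecule were estimated from the share of zeros among genes whose other libraries predict 8 to 16 counts. Replicate pairs differed beyond sampling noise (chi-square per degree of freedom at least 7.27), so none was merged. On simulated counts, 200 genes were changed by 1.5 on the log2 scale. Of these, 100% were recovered in CAL27 among 19183 genes, 100% in HSC3 among 18094 and 99.5% for the line by DOX difference among 19914. The simulation used a fixed dispersion, changed only well-counted genes and held no repeated counts of a molecule. It therefore checks that the code runs as meant and gives no power for genes with low counts.

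The genes and lists were chosen with earlier results of these data known. Besides the 10 genes and MUC1, the text names from each list and comparison at most the 2 genes with the largest rise and fall past the threshold (mean log2 CPM 3 or more), and the 3 genes most like IFNGR1 and SOCS3, which had the largest test statistics. Alternatives were DESeq2 1.42.0, its size factors, library totals, no filter, counts divided by counts per molecule, 1 fit over 12 libraries, a replicate block, a fold of 1.5, and each library left out. Promoter motifs were searched as letters only. A few genes that these rules would name are not reported here.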

Additional observations from a re-analysis of the deposited data

Results flagged for a closer look

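Responses to DOX that differed between the lines, by the line by DOX term of edgeR over all 12 libraries, were found for IFNLR1 (-0.65 on the log2 scale, HSC3 minus CAL27, adjusted p = 0.01), SOCS3 (0.86, adjusted p = 4.2e-05) and MUC1 (1.36, adjusted p = 0.001). The MUC1 call was lost after dividing counts by those per molecule (adjusted p = 0.091). MUC1 had only 46, 36 and 16 counts in the HSC3 DOX libraries, which may stand for few molecules. IFNLR1 fell in 3 of 3 DOX libraries of both lines and SOCS3 rose in 3 of 3 of both. With groups of 3 libraries no single library was tested as an outlier.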

How the results depend on the processing

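The calls for IFNGR1, IFNLR1 and SOCS3 with DOX in both lines, for SOCS1 in CAL27 cells, for SOCS1, SOCS2 and PIAS1 between the lines and for IFNLR1 and SOCS3 in the line by DOX difference held under every alternative run. Log2 values near 0 changed sign. IFNAR1 in CAL27 cells was -0.011 under library totals, -0.0079 with counts divided by counts per molecule and -0.039 to 0.035 on leaving out 1 library. IL10RB in HSC3 cells was -0.48 to 0.24 on leaving out 1 library, above 0 without vehicle replicate 3 (0.24) or DOX replicate 3 (0.014). IFNAR1 between the lines was -0.099 under library totals, and SOCS3 -0.075 to 0.005 on leaving out 1 library. The IFNGR2 difference in response was 0.0066 with counts divided by counts per molecule and -0.076 to 0.062 on leaving out 1 library.

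Of the 10 genes, the number higher with DOX in HSC3 cells was 1 under library totals, with no filter and in the fit with a replicate block, where SOCS2 had adjusted p-values of 0.061, 0.065 and 0.078. The shares of all genes in these settings are not given here, so the count shows only the loss of the SOCS2 call. Under library totals 1 was higher and 4 were lower between the lines, where the median of all genes moved by -0.27 and the shares of all genes are not given here. On leaving out 1 library, 1 to 2 were higher in CAL27 cells, where 17.8% to 23.7% of all genes were higher. In HSC3 cells 1 to 2 were higher and 2 to 6 lower, beside 8.03% to 17.5% and 10.9% to 19.3% of all genes. Between the lines 2 to 4 were lower, beside 33.1% to 37.9%. In the line by DOX difference 1 to 2 were higher and 1 to 2 lower, beside 6.21% to 12.3% and 9.06% to 15.2%. In 1 fit over all 12 libraries, 2746 genes were higher and 2337 lower in CAL27 cells, 568 of them lower by more than 2-fold, and 545 were higher and 1237 lower by more than 2-fold in HSC3 cells. With a fold of 1.5 in place of 2 within each comparison's own 6 libraries, the counts were 714 higher and 1848 lower in CAL27, 798 and 1514 in HSC3 and 4484 higher between the lines. Leaving out 1 library gave 1514 to 3268 genes higher in HSC3 cells and 1336 to 2614 higher in the line by DOX difference. The cause was not tested.

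By the rule that every same-numbered pair correlate above 0.1, replicate numbers were not taken to pair the samples. Deviations of same-numbered HSC3 vehicle and DOX libraries correlated at -0.191, 0.336 and -0.327, and those of the vehicle libraries of the 2 lines at 0.0991, 0.139 and 0.196, where every library correlated best with its own number and differently numbered pairs lay between -0.12 and -0.000178. Besides SOCS2, the replicate block lost the HSC3 call of PIAS1 (0.098) and gained IFNGR1 between the lines (0.042). CAL27 DOX columns carry no replicate number, so no block was possible there. IFNAR2, IL10RB and SOCS1 had the fewest counts and, in HSC3 cells, the widest standard errors (0.42, 0.52 and 0.52).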
